A study of Mus musculus with 24 samples.

Results

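Noct encodes nocturnin, and its messenger RNA was followed here through liver and kidney of mice given cisplatin, CBLB502 or both. It is 1 gene of the 33272 in the deposited table, where it has the gene ID ENSMUSG00000023087. Noct was chosen by its own measured values: it was the only gene called (1 of 20341 tested, 0.00492%) when kidney of the combination was compared with kidney given cisplatin alone. All its levels and fold changes below are therefore descriptions, with no test and no p-value.

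Nocturnin belongs to the family of exonucleases, endonucleases and phosphatases that includes the CCR4 deadenylases, enzymes that shorten the poly(A) tail of messenger RNA. The enzyme itself removes a phosphate from NADP+ and NADPH, which yields NAD+ and NADH. Its transcript is known for a strong daily rhythm in mouse liver and other organs and for acute induction by several stimuli, and mice that lack it store less fat on a rich diet.

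All animals were C57BL/6 mice, and each of the 2 tissues had 4 arms of 3 libraries, which makes 24 libraries. The control arm was untreated, and the labels give it no time of collection. The CBLB502 arm received 0.2 mg/kg of this flagellin-derived agonist of the receptor TLR5 and was collected at 72 h. The cisplatin arm received 20 mg/kg of this platinum drug into the peritoneum and was also collected at 72 h. The combination arm received 0.2 mg/kg CBLB502 30 min before 20 mg/kg cisplatin, again with collection at 72 h. No label gives the clock time of collection for any arm, so for a gene with a daily rhythm the arm and the hour of collection cannot be told apart. Whether the 3 libraries of an arm are separate animals is not stated, so errors and p-values reflect only how these libraries scatter, which may in part be technical.

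Noct lies on the plus strand of chromosome 3, from 51224447 to 51251644, a span of 27198 bases in the coordinates of the deposited table, which match the GENCODE vM21 annotation of mouse build GRCm38. That annotation holds 4 transcripts. Noct-201 has 3 exons and 3059 exonic bases, with the coding sequence opening in exon 1 (51224447 to 51225287) and ending in exon 3 (51249697 to 51251644). Noct-202 starts inside the first intron of Noct-201 with a first exon of 7869 bases (51240206 to 51248074), nearly all of it untranslated. The counts are per gene, so the shares of these transcripts were not measured. The 250 bases upstream of Noct-201 are shown because they lie before the start of the gene model whose counts are described below, as RefSeq gives them for GRCm38.p6 (chr3:51224197-51224446, plus strand, 5′ to 3′), with matches to the CCAAT box and to the general E-box CANNTG in capitals.

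Noct promoter: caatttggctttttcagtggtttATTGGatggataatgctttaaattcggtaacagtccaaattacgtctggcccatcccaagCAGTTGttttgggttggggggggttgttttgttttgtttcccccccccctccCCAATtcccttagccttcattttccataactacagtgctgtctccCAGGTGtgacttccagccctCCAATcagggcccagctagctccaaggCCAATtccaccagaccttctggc

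The letters were searched on both strands, and the motifs were picked with the sequence in view. CCAAT had 4 matches, which begin at positions -227 (as ATTGG, its reverse complement), -115, -50 and -23 from the start, and 34.5% of the same windows of 27025 genes hold at least 1. CANNTG, the loose form of the E-box that clock proteins and many other factors can bind, had 2 matches, CAGTTG at -167 and CAGGTG at -70, and 66.0% of windows hold it. The canonical E-box CACGTG (in 6.05% of windows), the cyclic AMP response element TGACGTCA (1.62%), the core of the REV-ERB and ROR element AGGTCA (13.8%) and the TATA box TATAAA (13%) had no match in this window. A match is a description of letters and not of a bound site.

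The control libraries stood apart from all treated ones before any gene was compared. Mitochondrially encoded genes took 69.3% to 72.24% of counts in control liver and 60.69% to 68.96% in control kidney, against 2.567% to 7.105% and 6.315% to 14.22% in the treated libraries. Totals ran from 40.58 to 77.54 M counts in liver (M for mega) and from 52.85 to 77.1 M in kidney, but the counts outside mitochondrial genes and their nuclear copies were 2.819 to 4.649 M in control liver and 5.054 to 10.14 M in control kidney. Levels are counts per M (CPM) on library sizes scaled by TMM, the trimmed mean of M-values, computed separately in each tissue. Because the scaling factors of controls were 0.2141 to 0.4616 and those of treated libraries 1.155 to 1.936, every comparison with control below leans on the scaling, and comparisons among treated arms do so less.

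In liver, Noct was highest in the combination and about equally low in control and cisplatin. The 3 control libraries had 12.72, 8.205 and 10.67 CPM (10.53 ± 2.26; mean ± SD, n = 3). Libraries given CBLB502 had 23.49, 24.01 and 43.35 CPM (30.28 ± 11.3, n = 3). Those given cisplatin had 8.521, 10.64 and 22.44 CPM (13.87 ± 7.5, n = 3). The combination had 57.61, 74.13 and 49.99 CPM (60.58 ± 12.3, n = 3). All 3 combination libraries lay above every other liver library, all 3 CBLB502 libraries lay above every control and cisplatin library, and the control and cisplatin arms overlapped. The cisplatin arm was the most uneven, since its library 3 stood 2.63-fold above its lowest and just under the lowest CBLB502 library.

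In kidney, Noct was again highest in the combination, but the single agents stood in the reverse order. Control kidney had 12.94, 12.79 and 11.64 CPM (12.46 ± 0.713, n = 3). Kidney given CBLB502 had 14.26, 10.18 and 12.17 CPM (12.2 ± 2.04, n = 3), and these libraries overlapped the controls. Kidney given cisplatin had 24.76, 25.66 and 28.72 CPM (26.38 ± 2.08, n = 3). The combination had 148.1, 88.16 and 105.1 CPM (113.8 ± 30.9, n = 3). Every cisplatin library lay above all 6 libraries of control and CBLB502, and the lowest combination library was above the highest of the other arms. In whole tissue a change in the number of cells that express Noct and a change in RNA per cell cannot be told apart.

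**Figure D1:**
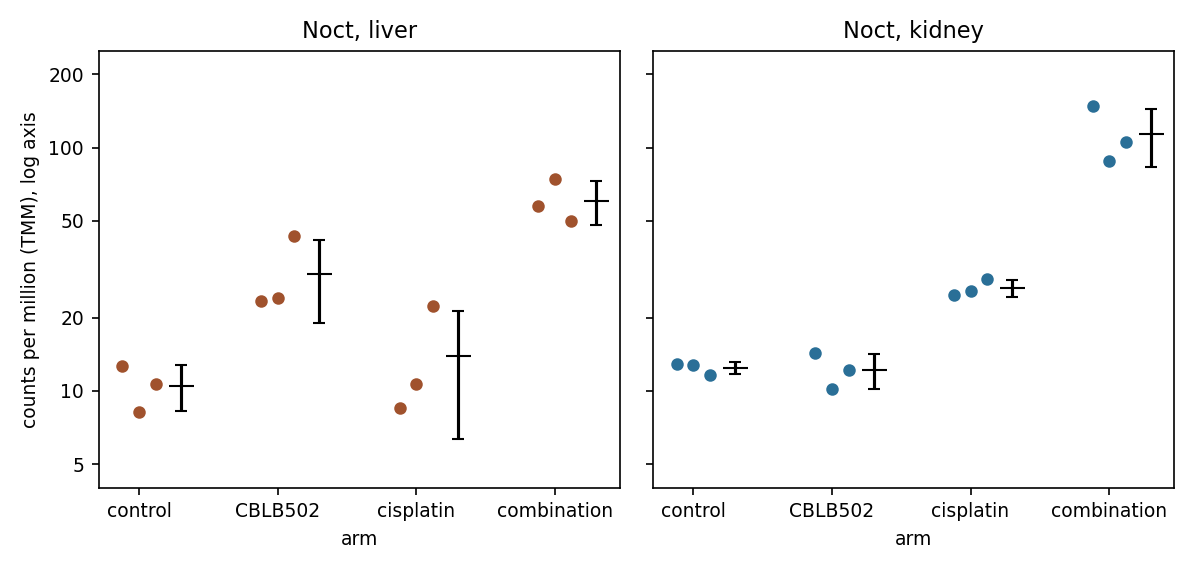
Noct in each library of liver (left) and kidney (right), in TMM-scaled CPM on a log axis, with 3 points per arm and the mean ± SD (n = 3) as a black bar beside them. The combination libraries are the highest in both tissues, at 49.99 to 74.13 CPM in liver and 88.16 to 148.1 CPM in kidney, while CBLB502 stands above cisplatin in liver and below it in kidney.

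The counts behind these levels were lowest in the controls. Control liver had 126, 106 and 106 Noct counts, and the exact Poisson 95% interval of 106 runs from 86.78 to 128.2. Control kidney had 153, 312 and 224 counts. Treated libraries had 759 to 8093 counts in liver and 966 to 14164 in kidney, where the interval of the highest runs from 13930 to 14400. These intervals cover counting error only, and in the treated libraries the spread between libraries of an arm was wider than they are.

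The combination against cisplatin gave nearly the same difference in both organs. In liver it was a log2 fold change of 2.13 ± 0.381 (SE), with the means 4.37-fold apart, and in kidney it was 2.11 ± 0.2, with the means 4.31-fold apart. No library of one arm reached the other arm in either tissue: the lowest combination value was 49.99 CPM against at most 22.44 in liver, and 88.16 against at most 28.72 in kidney. The kidney contrast is the one that selected the gene. The liver contrast comes from other libraries of the same arms. Whether those are from the same mice is not stated, so the liver value is not an independent repeat. Among all genes tested, 3.25% had a higher log2 fold change than Noct in liver (rank 583 of 17931) and 1.59% in kidney (rank 324 of 20341). Library 3 of liver cisplatin and library 6 of kidney cisplatin stood apart from their arms across the transcriptome. Without them the Noct difference was 2.68 in liver and 2.18 in kidney.

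The combination against CBLB502 gave unequal values in the 2 organs, and this gap between organs was not tested. In kidney the log2 fold change was 3.22 ± 0.209, with the means 9.33-fold apart and the nearest libraries at 88.16 and 14.26 CPM. In liver it was 1.0 ± 0.369, with the means 2-fold apart, and the nearest libraries were close, at 49.99 and 43.35 CPM. Against control, the combination stood at 2.53 ± 0.392 in liver (means 5.75-fold apart) and at 3.19 ± 0.211 in kidney (9.14-fold).

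Of the single agents, CBLB502 stood apart from control in liver and cisplatin did so in kidney. CBLB502 against control was 1.53 ± 0.38 in liver, with the means 2.88-fold apart and no overlap of libraries, and -0.03 ± 0.196 in kidney, with overlap. Cisplatin against control was 0.40 ± 0.374 in liver, with overlap, and 1.08 ± 0.197 in kidney, with the means 2.12-fold apart and no overlap. The small liver value has no settled sign. It was -0.10 without library 3 of liver cisplatin. On the counts outside mitochondrial genes and their copies it was -0.77 without a scaling factor and 0.39 with TMM kept. Cisplatin against CBLB502 was -1.13 ± 0.37 in liver, where CBLB502 was 2.18-fold higher, and 1.11 ± 0.195 in kidney, where cisplatin was 2.16-fold higher. The gap in liver was narrow, since the highest cisplatin library had 22.44 CPM and the lowest CBLB502 library 23.49. The 6 libraries of the CBLB502 arm were also the ones with counts on a second gene ID of Nnt, which was at 0 in the other 18. Whether that arm differed from the others in C57BL/6 substrain or in the annotation used for counting is not stated and was not tested, and it bears on every comparison with CBLB502.

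The changes of the single agents from control were also added together and set beside that of the combination, on the log2 scale. In liver the single changes in mean log2 CPM summed to 1.77, and the combination changed by 2.52. In kidney they summed to 1.04 and the combination changed by 3.16. As edgeR fold changes the single changes summed to 1.93 in liver and 1.05 in kidney, and the combination stood at 2.53 and 3.19. The order turned for edgeR fold changes on total counts without a scaling factor. There the single changes summed to 7.20 in liver and 5.31 in kidney, and the combination stood at 5.12 and 5.18. These values are descriptions, and the difference was not tested.

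**Figure D2:**
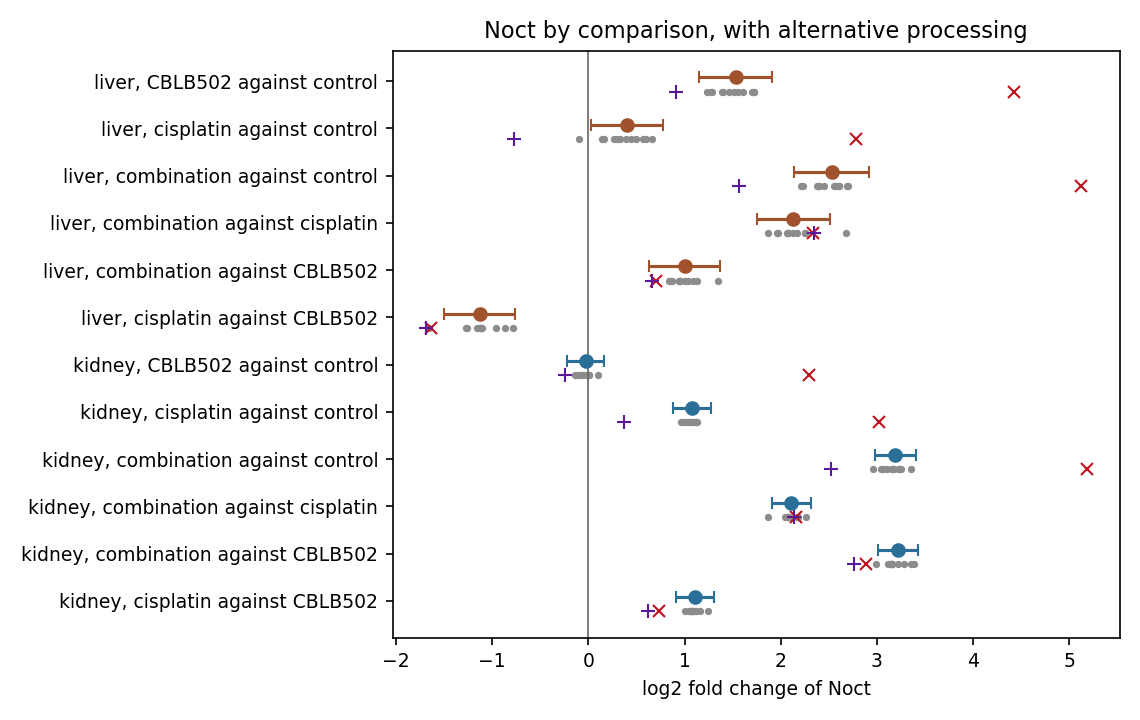
Noct log2 fold change in 12 comparisons, with the edgeR estimate ± SE (circles, brown for liver and blue for kidney) and below each the estimates under alternative processing (grey points). Total counts are red crosses and counts outside mitochondrial genes and copies are purple plus signs, both without a scaling factor. The combination against cisplatin stays between 1.87 and 2.68 in liver and between 1.87 and 2.26 in kidney, while the comparisons with control move widely with the scaling.

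How far treated tissue stood above control depended on whether a scaling factor was used. With mitochondrial genes and their copies left out and TMM kept, the log2 fold changes against control stayed close to those above. They were 1.51 (CBLB502), 0.39 (cisplatin) and 2.45 (combination) in liver, and 0.00, 1.08 and 3.16 in kidney. Levels were also taken per M of counts outside mitochondrial genes and their copies, without a scaling factor. The liver means were then 33.97 ± 11 in control, 63.87 ± 24.2 after CBLB502, 19.81 ± 13.9 after cisplatin and 100.9 ± 18.8 in the combination (SD, n = 3). Kidney had 30.16 ± 0.68, 25.47 ± 4.63, 39.1 ± 8.49 and 172.9 ± 46.1 in the same order. The combination was the highest arm in both tissues on this scale too, and control liver now had the higher mean of control and cisplatin.

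Comparing the tissues needs a single scaling of all 24 libraries. On it, control liver had 15.05 ± 2.89 CPM of Noct and control kidney 8.441 ± 0.392 (SD, n = 3), 1.78-fold apart without overlap. With CBLB502 the liver mean was 42.81 ± 16.6 against 9.152 ± 1.51 in kidney, 4.68-fold apart without overlap. With cisplatin the means were 19.95 ± 11 and 18.57 ± 1.9, and with the combination 83.44 ± 17.1 and 79.77 ± 22.2, with overlapping libraries in both cases. From highest to lowest the 8 groups were liver combination, kidney combination, liver CBLB502, liver cisplatin, kidney cisplatin, liver control, kidney CBLB502 and kidney control. Neighbours in this order overlapped except for liver CBLB502 over liver cisplatin (lowest 32.69, highest 32.49 CPM) and liver control over kidney CBLB502 (12 and 10.74 CPM).

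Other gene models lie within and beside Noct. Gm38357, a transcript model still awaiting experimental evidence, on the same strand and inside the first intron of Noct-201 (51231917 to 51234380), had 107, 61 and 32 counts in the liver combination, at most 22 elsewhere, and 0 in 15 of 24 libraries. It overlaps no exon of Noct. Elf2, an ETS transcription factor gene on the opposite strand 1075 bases beyond the end of Noct, had a log2 fold change of 0.02 in liver and -0.17 in kidney for the combination against cisplatin, and neither was called.

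Related enzymes of the family stood at other levels. Levels between genes were compared per kb of the gene length implied by the deposited FPKM and total counts, 12.4 kb for Noct. That is more than the 10658 exonic bases of its 4 transcripts together, so it is a scale and not a measured length. It is also far above the 3059 bases of Noct-201, which lowers the level of Noct if the short transcripts dominate. In the combination Noct stood at 4.87 ± 0.993 CPM per kb in liver and 9.16 ± 2.49 in kidney (SD, n = 3), and it ranked 1 of the 6 related genes in all 6 libraries. The CCR4 deadenylase gene Cnot6 had 1.95 ± 0.142 and 3.51 ± 0.163 there, and its paralog Cnot6l 1.41 ± 0.117 and 2.0 ± 0.253. Angel2, another member of the family, had 1.5 ± 0.0613 in liver and 2.98 ± 0.0449 in kidney, and its paralog Angel1 had 0.546 ± 0.0898 and 0.78 ± 0.0607. Pde12, the mitochondrial member that removes poly(A) tails, had 0.781 ± 0.0599 and 1.57 ± 0.0856. In kidney without cisplatin Noct was among the lowest of the 6, at ranks 4 to 5 in control and 5 to 6 with CBLB502. None of the 5 relatives was called for the combination against cisplatin in either tissue, where their log2 fold changes lay between -0.42 (Angel1 in kidney) and 1.0 ± 0.924 (Angel1 in liver).

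Core clock and clock output genes, 22 in the list and all tested, make up the oscillator that drives daily transcript rhythms and its first targets. A gene is called where edgeR's adjusted p is under 0.05. For the combination against cisplatin in liver, 3 clock genes were called (1 higher, 2 lower) where 3.57% of all genes were, and their median log2 fold change was 0.08 against 0.01 over all genes. The gene that rose was Ciart, a repressor of the CLOCK and BMAL1 pair, by 2.59 ± 0.391 (adjusted p = 0.00984), from 3.165 to 19.13 CPM. Among those that fell was Nfil3, a repressor of D-box genes, with a log2 fold change of -2.33 ± 0.499, named after its values were seen. In kidney no clock gene was called where 0.00492% of genes were, a share that is Noct itself. There 2614 genes had an unadjusted p under 0.05, and DESeq2 called 626. Ciart had 2.26 ± 0.461 in kidney (adjusted p = 0.229), from 0.9103 to 4.369 CPM, with no overlap of libraries. These counts rest on single libraries, as do the calls over all genes (640 in liver and 1 in kidney). Without library 3 of liver cisplatin, 10 clock genes were called among 4278 genes called in all. Without library 6 of kidney cisplatin, 9 were called among 4679. In liver 0 clock genes were called without any 1 of the 3 combination libraries, where only 6, 7 and 13 genes were called in all.

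Other clock genes, named whatever their result, gave smaller or uneven differences between combination and cisplatin. Dbp, a direct target of the clock, had 2.04 ± 1.1 in liver (adjusted p = 0.32) and 0.23 ± 0.259 in kidney (adjusted p = 0.787). Per2, a core repressor, had 1.51 ± 0.733 (adjusted p = 0.266) and 0.75 ± 0.362 (adjusted p = 0.41), and Per1 had 0.66 and -0.25. Arntl, which encodes the activator BMAL1, had -0.13 and -0.72 in liver and kidney, and Nr1d1, which encodes its repressor REV-ERB alpha, had -0.15 and -0.43. None of these was called in either tissue.

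**Figure D3:**
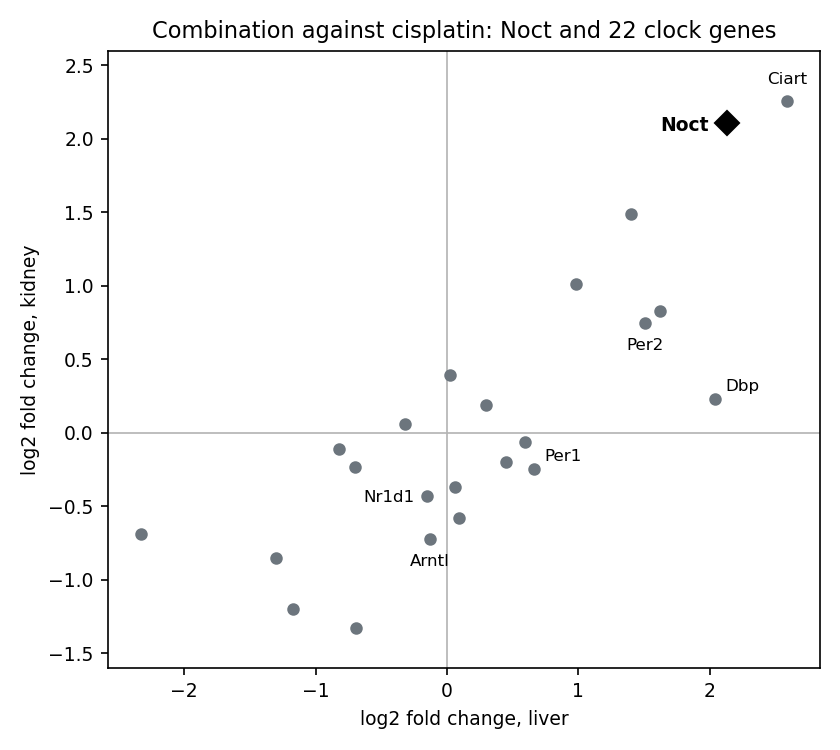
Log2 fold change of the combination against cisplatin in liver (horizontal axis) and kidney (vertical axis) for Noct (black diamond) and 22 clock genes (grey points, 6 of them labelled), 3 libraries per arm. Noct lies at 2.13 and 2.11, and Ciart, at 2.59 and 2.26, is the clock gene that lies beyond it on both axes.

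Clock genes were also called between the single agents in both organs. For cisplatin against CBLB502, 8 clock genes were called in liver (5 higher, 3 lower) where 12.5% of all genes were, and 11 in kidney (6 higher, 5 lower) where 28.7% were. In liver Dbp fell (log2 fold change -4.39, adjusted p = 0.0371), as did Nr1d1 (-2.78) and Ciart (-1.53), and Arntl rose (2.11 ± 0.35, adjusted p = 0.00373). In kidney Nr1d1 (-1.21), Ciart (-1.49) and Dbp (-0.94) fell, and Per1 rose (1.66 ± 0.269). For the combination against CBLB502, 7 clock genes were called in liver (6 higher, 1 lower), with 6.74% of all genes called, and 7 in kidney (5 higher, 2 lower), with 23.8% called. Nr1d1 fell in both, with -2.92 in liver and -1.64 in kidney. Noct was lower with cisplatin than with CBLB502 in liver, as Nr1d1, Dbp and Ciart were, but higher in kidney, where those 3 genes fell. In liver, though, 5 of the 8 clock genes called for this comparison were higher, and the median of the list was 0.31.

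Against control, between 11 and 14 clock genes were called in every treated arm of both tissues. In liver there were 12 with CBLB502 (8 higher, 4 lower; 27.8% of all genes called), 12 with cisplatin (11 higher, 1 lower; 43.1%) and 13 with the combination (12 higher, 1 lower; 40.2%). In kidney there were 12 with CBLB502 (7 higher, 5 lower; 19.2%), 11 with cisplatin (9 higher, 2 lower; 39.3%) and 14 with the combination (11 higher, 3 lower; 36.5%). With CBLB502 in liver, Nr1d1 went from 3.736 to 55.22 CPM, Dbp from 0.6393 to 51.08 and Arntl from 11.49 down to 1.62, and all 3 were called without overlap. In kidney the same arm had Nr1d1 at 41.39 CPM against 12.6 in control, Dbp at 36.7 against 4.572 and Arntl at 3.371 against 17.46, also called. Noct in that kidney arm overlapped the controls. These counts against control carry the same dependence on scaling as Noct does.

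Genes of the reactions around nocturnin were counted in the same comparison, combination against cisplatin, where 3.57% of all genes were called in liver and 0.00492% in kidney, so few calls would fall in any list of this size. Among 17 genes of poly(A) tail shortening, none was called in either tissue (0 to 5 in each over the alternatives), with medians of 0.21 in liver and -0.14 in kidney. Among the 14 genes of NADP(H) supply, none was called (0 to 9 in liver and 0 to 8 in kidney over the alternatives), with medians of 0.00 and 0.01. Nadk, the cytosolic NAD kinase that makes NADP+, had 0.27 ± 0.316 in liver and -0.21 ± 0.146 in kidney. Nadk2, the mitochondrial NAD kinase, had 0.03 ± 0.374 in liver and 0.78 ± 0.183 in kidney (adjusted p = 0.229), where its mean went from 30.93 to 52.97 CPM with no overlap. Against control the combination had 7 NADP(H) calls in liver (5 higher, 2 lower), or 46.7% of those tested where 40.2% of all genes were called. In kidney it had 8 (all higher), or 53.3% where 36.5% were. These shares are of 15 gene IDs, since Nnt stands on 2. The second Nnt ID had 0 counts in control and combination, so it could not be called here.

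The fat uptake and storage list gave a single call between these arms. In liver 1 of 15 tested was called (3.57% of all genes were), Plin2, a lipid droplet coat protein, which fell by 1.42 on the log2 scale (adjusted p = 0.0259). In kidney none of 16 was called (0.00492% of all genes were). The medians were 0.02 and 0.35, and the alternatives gave 0 to 5 calls in liver and 0 to 1 in kidney. Pparg, a fat storage regulator that nocturnin has been reported to bind, had 0.08 ± 0.822 in liver at 2.95 CPM and 0.62 ± 0.664 in kidney at 2.462 CPM. Igf1, a growth factor whose transcript has been reported as a nocturnin target, had 0.29 ± 0.32 in liver and -0.64 ± 0.622 in kidney. In kidney both fell after cisplatin against control, where 39.3% of all genes were called. Pparg had a log2 fold change of -3.04 (adjusted p = 0.00582) and Igf1 -2.47 (adjusted p = 0.0108). This comparison leans on the scaling as others with control do. The adipocyte markers described below summed to 112.9 to 5154 CPM in control kidney and 124.2 to 320.8 with cisplatin. Their part in these falls was not tested. Igf1 in liver was not called in any comparison.

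Noct is an acutely inducible gene, so immediate-early and glucocorticoid response genes were set beside it. Between combination and cisplatin, 1 of 14 immediate-early genes was called in liver (3.57% of all genes) and 0 of 16 in kidney (0.00492%), and the medians were -0.79 and -1.62. The gene called was Ier3, which fell by 7.38 ± 1.52 on the log2 scale (adjusted p = 0.0269), although its libraries overlapped. The medians of this group were below 0 in both tissues, where Noct was higher in the combination. Over the alternatives 0 to 7 immediate-early genes were called in liver and 0 to 12 in kidney. Among 12 glucocorticoid response genes, 1 was called in liver, the transcription factor gene Zbtb16, which rose by 1.05 ± 0.228 (adjusted p = 0.0326), and 0 in kidney, with medians of 0.16 and -0.06 and with 0 to 8 and 0 to 6 calls over the alternatives. Against control in kidney, all 12 rose with the combination (median 2.73, 36.5% of all genes called) and 10 with cisplatin (median 2.72, 39.3% called). None was called with CBLB502 (median 0.42, 19.2% of all genes called). Over the alternatives 0 to 12 were called, while the calls over all genes ran from 2316 to 15610 (main 3904). Noct in kidney was higher than control in the first 2 of these arms and overlapped it in the third. The combination and cisplatin arms differed 4.31-fold for Noct and had list medians of 2.73 and 2.72. Whether Noct is linked to this list was not tested.

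The genes whose profile was most like Noct were found by centring log2 CPM on each tissue's mean and taking the root mean square difference over the 24 libraries. Among 10583 genes compared, with a median of 1.248, the nearest were Shld2 (0.609), a DNA repair factor of the shieldin complex, and Slc25a20 (0.626), the carnitine and acylcarnitine carrier of mitochondria. They were followed by B3gnt8 (0.667), a glycosyltransferase, Polg2 (0.667), the accessory subunit of the mitochondrial DNA polymerase, Mtarc2 (0.668), a mitochondrial reductase, and Reep6 (0.676), an endoplasmic reticulum protein. Upb1 (0.687), of pyrimidine breakdown, and Eci1 (0.689), of mitochondrial fatty acid oxidation, closed the 8 named. Noct itself scattered around its own group means by 0.315, so none of these genes tracked it within its library spread. Only Reep6 had the dip of the liver cisplatin arm at a similar depth, at -1.11 against -0.79 for Noct, and its kidney combination mean was 1.37 against 2.11. In control liver, though, Reep6 stood at -0.03 and Noct at -1.07. Over the 9 treated libraries of a tissue, Pearson's r of Reep6 with Noct was 0.93 in liver and 0.97 in kidney (Spearman's rho 0.83 and 0.85), and that of Shld2 was 0.82 and 0.9 (rho 0.7 and 0.78). These are descriptions over libraries that share arms and were used to pick the genes.

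**Figure D4:**
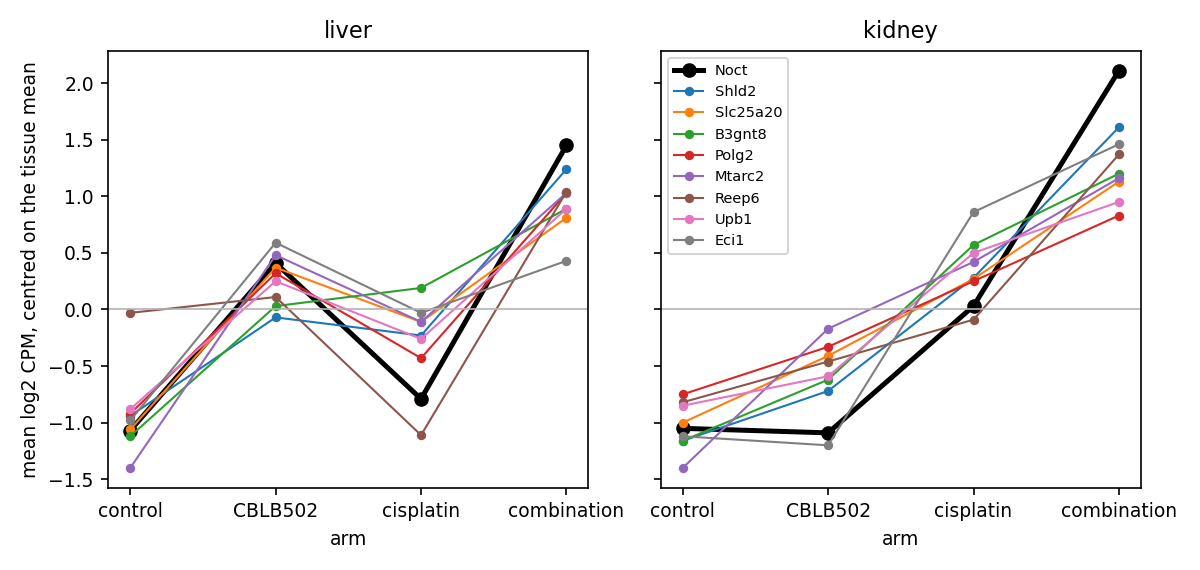
Mean log2 CPM of 3 libraries per arm, centred on the tissue mean, for Noct (thick black line) and the 8 genes most like it, in liver (left) and kidney (right). Noct reaches 1.45 in the liver combination and 2.11 in the kidney combination, above each of the 8, and its kidney CBLB502 mean of -1.09 is close to its control mean of -1.05.

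Markers of the tissues and of other cell types were measured in the same libraries. All 8 hepatocyte markers had counts in every liver library, with summed levels of 63350 to 86930 CPM with cisplatin and 63230 to 81960 with the combination. Their liver sums were lower in control (14790 to 28020) and with CBLB502 (50340 to 61880). All 8 kidney tubule markers had counts in every kidney library, at 2028 to 6225 with cisplatin and 4017 to 4674 with the combination. Their kidney sums were 2062 to 3856 in control and 7829 to 8356 with CBLB502. Hepatocyte markers in kidney summed to 239.9 to 373.9 in control and 1487 to 1907 with the combination. Adipocyte markers are given because nocturnin is also expressed in fat. In liver they summed to 222.1 to 963.8 CPM in control, 1149 to 1222 with CBLB502, 6.287 to 197.7 with cisplatin and 14.49 to 53.32 with the combination. In every liver library of the combination and of CBLB502, 5 of 8 (Adipoq, Plin1, Lep, Retn and Cidea) were at 0. The sums of those arms therefore come from Cfd, Fabp4 and Car3 alone. In kidney the adipocyte markers summed to 112.9 to 5154 CPM in control, 106.8 to 248 with CBLB502, 124.2 to 320.8 with cisplatin and 106 to 367.9 with the combination. All 8 had counts in every treated kidney library and 6 of 8 in every control kidney library. The sums of macrophage markers were lower in the liver combination (16.83 to 24.47 CPM) than with cisplatin (27.69 to 82.08), and those of neutrophil markers were 0.2114 to 0.6778 against 2.523 to 40.61. In kidney the macrophage sums overlapped (22.37 to 29.04 against 20.24 to 39.17), as did the neutrophil sums (0.2405 to 2.351 against 1.371 to 29.24). The endothelial sums were 8.143 to 13.51 CPM in the liver combination and 8.476 to 27.11 with cisplatin, and 32.62 to 84.98 and 14.56 to 128.7 in kidney. The erythroid sums were 11.53 to 17.18 CPM in the liver combination against 4.364 to 9.421 with cisplatin, and 12.54 to 18.48 against 1.787 to 14.64 in kidney. The lymphocyte sums were at most 1.556 CPM in either arm of either tissue. The part of these shifts in the Noct differences was not tested.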

How the data were processed

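The authors deposited 1 table of raw counts and FPKM per gene and library, per the file headers, for 24 libraries of Trizol-extracted total RNA. Per the submitters' processing notes, cutadapt 1.9 and FastQC were used. Aligner, counter, strand setting, build and annotation: not given in the sources used here. Treated kidney columns carry numbers that the labels do not use, so they were tied to a group only, and 9 FPKM columns of treated kidney were not used. The deposited FPKM served only to derive the implied gene lengths, with which counts per M per kb were computed in all libraries.

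The deposited counts entered edgeR 4.0.16 (R 4.3.3; filterByExpr, TMM scaling, quasi-likelihood test, Benjamini-Hochberg adjustment over all genes tested, threshold 0.05), with the 12 libraries of a tissue in 1 fit. All 6 pairs of arms were compared in each tissue. Log2 CPM carry a prior count of 2. The scripts were tested on simulated data. Alternatives were other scalings, no filter, fits of only the compared arms, DESeq2 1.42.0, a replicate block in liver, and leaving out each library. Noct and the gene lists were chosen with earlier results of these data known. Named were Noct, the 8 genes with the smallest root mean square difference from it (mean CPM of at least 1 in both tissues, predicted models left out), 15 pathway genes whatever their result, and the largest called change of a list. The 6 pathway lists hold 97 genes and the 8 marker lists 64. Replicate numbers did not pair the liver libraries. Genes are uncertain where 1 symbol covers several IDs (66 symbols). Some genes of the lists are not reported here by name.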

Additional observations from a re-analysis of the deposited data

Results flagged for a closer look

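Cisplatin against CBLB502 ran in opposite directions for Noct in the 2 tissues. In liver the log2 fold change was -1.13 ± 0.37 (SE), with all 3 cisplatin libraries below all 3 CBLB502 libraries. In kidney it was 1.11 ± 0.195, with all 3 cisplatin libraries above all 3 CBLB502 libraries. Every library followed the direction of its tissue, and the difference between the tissues was not tested. The liver gap was the narrower, with 22.44 CPM in the highest cisplatin library and 23.49 CPM in the lowest CBLB502 library.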

How the results depend on the processing

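Of 162 Noct values under alternatives, 143 moved by less than the replicate SD and 19 by more, and none of the clear differences turned sign. The combination against cisplatin lay between 1.87 and 2.68 in liver and between 1.87 and 2.26 in kidney under all alternatives. On total counts without a scaling factor, Noct against control was 4.42 (CBLB502), 2.78 (cisplatin) and 5.12 (combination) in liver and 2.29, 3.02 and 5.18 in kidney, and against CBLB502 in kidney it was 2.89 (combination) and 0.73 (cisplatin). Counts outside mitochondrial genes and copies, also without a scaling factor, were chosen after seeing the data. On them these values were 0.91, -0.77 and 1.57 in liver, -0.24, 0.37 and 2.52 in kidney, and 2.76 and 0.62 against CBLB502 in kidney. With those genes left out and TMM kept, Noct against control was 1.51, 0.39 and 2.45 in liver and 0.00, 1.08 and 3.16 in kidney. Median-of-ratios scaling gave 2.21 for the liver combination and 0.96 for kidney cisplatin against control, and DESeq2 gave 0.98 for the latter. The cause of these shifts was not tested.

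Counts of called genes moved more. Total counts gave 13425, 11666 and 12580 calls against control in liver (CBLB502, cisplatin, combination) and 15610, 13553 and 13899 in kidney, 301 for the combination against cisplatin in liver and 0 in kidney (main 640 and 1), and in kidney 2352 and 2809 for combination and cisplatin against CBLB502. Fits of only the 2 arms compared gave 4469 and 4474 for cisplatin against control in liver and kidney, 83 and 0 for the combination against cisplatin, 5365 and 9496 for the combination against CBLB502, and 3285 for cisplatin against CBLB502 in kidney. DESeq2 gave 2520 and 626 for the combination against cisplatin, and in liver 2572 and 4081 for combination and cisplatin against CBLB502. Counts outside mitochondrial genes and copies, without a scaling factor, gave 3658 for the last. No filter on low counts gave 390 for the combination against cisplatin in liver. Leaving out 1 library gave 6 (without liver combination 1) to 4278 (without liver cisplatin 3) for that comparison, and 0 (without kidney cisplatin 4) to 4679 (without kidney cisplatin 6) in kidney. For the combination against CBLB502 it gave 448 (without liver CBLB502 1) to 579 in liver and 2712 (without kidney CBLB502 4) to 3679 in kidney. For cisplatin against CBLB502 it gave 796 (without liver CBLB502 3) to 5490 (without liver cisplatin 3) and 3300 (without kidney CBLB502 4) to 9834 (without kidney cisplatin 6), and for kidney CBLB502 against control 2316 (without kidney CBLB502 5) to 3454.

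Same-numbered liver libraries did not deviate together (18 pairs, correlations from -0.169 to 0.176, median 0.014). With the replicate block the combination against cisplatin in liver had 390 calls and Noct stood at 2.25. No paired analysis was possible in kidney because its treated columns carry numbers that the labels do not use, and were tied to groups only. Depth limits Noct most in the controls, with 106 to 312 counts.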

Other observations

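Nnt, the mitochondrial transhydrogenase that makes NADPH, stands on 2 gene IDs in the table, and counts were split between them by arm. The ID ENSMUSG00000116207 had 188 to 821 counts in liver and 1825 to 5911 in kidney of the CBLB502 arm, and 0 in the other 18 libraries. The ID ENSMUSG00000025453 had counts in all 24 libraries, with a median of 1290 in liver and 3844 in kidney given CBLB502, against 6905 and 12378 in the combination. The labels give C57BL/6 with no substrain, and no annotation is named. Whether either differed between the arms was not tested.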
